A study of Drosophila melanogaster with 20 samples.

Results

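Whole adult yw females were compared with whole adult yw males by the RNA levels of their genes. The comparison used 4 of the 20 libraries of the series, 2 input libraries from each sex, and took in the 12778 of 17276 listed genes whose mean level over these 4 libraries was at least 1 FPKM. FPKM gives the sequenced fragments of a gene relative to the length of its transcript and to all mapped fragments of the library, so levels could be set side by side between genes. Input libraries are the part of the poly(A) RNA that was fragmented but not precipitated with the antibody against m6A, the methylated adenosine that the study is about. The other groups of the series are males of 3 mutants of the m6A writer complex (Mettl3, Mettl14 and Hakai), and the levels in their 6 input libraries are given here only beside those of yw males.

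Both groups were adult Drosophila melanogaster about 1 to 2 days old of the strain yw, which carries mutations of the body colour gene yellow and the eye colour gene white, and were grown at 25°C on cornmeal food. Sex was the labelled difference between them. The female samples were numbered in a block apart from all male samples of the series. Whether they were prepared or sequenced at another time is not given, so sex cannot be told apart from such a difference. Whether the females were virgin or mated, and how many flies went into a library, is not given in the sources used here. Nothing in the labels says that the libraries of a sex came from separate pools of flies, so the p-values measure the spread between these libraries, which may be technical. In RNA from whole flies, fewer cells of a type cannot be told apart from less RNA per cell.

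Sex in Drosophila is set by the number of X chromosomes, which in females switches on Sxl, a splicing regulator. Sxl directs female splicing of tra, and Tra with Tra2 directs the splicing of dsx and fru, while in males the MSL complex raises transcription of the single X. The sexes also differ in organs: a female carries ovaries, in which nurse cells supply the oocyte with RNA and follicle cells secrete the eggshell, and a male carries testes, accessory glands that make seminal proteins, and an ejaculatory bulb. The study is about the m6A writer complex, which promotes female splicing of Sxl.

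The libraries of a sex resembled each other closely, with a correlation of log2 levels across genes of 0.996 between the female libraries and 0.978 between the male libraries, against 0.510 to 0.523 between libraries of opposite sex. These are descriptions across genes, which are not independent replicates. The male libraries were less alike, with a median SD on the log2 scale of 0.136 against 0.038 in females, and 276 tested genes (2.16%) differed by at least 2-fold between them against 77 (0.603%) between the female libraries. Fewer genes were listed at 0 FPKM in males (1012 and 772) than in females (2395 and 2377). The markers of the labelled sex were present in every library, as the yolk, eggshell, testis and accessory gland genes described here show.

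Of the 12778 genes tested, 1168 (9.14%) were higher in females and 2923 (22.9%) were higher in males, by at least 2-fold and with an adjusted p under 0.05. The differences in males were larger. Among the genes higher in males the median difference was 3.49 on the log2 scale, and 300 of them differed by 6 or more. Among those higher in females the median was 1.40, and 12 differed by 6 or more. The filter let in 2533 genes with a mean under 1 FPKM in females and 348 with a mean under 1 FPKM in males, and for such genes the direction follows from the filter. Of the genes higher in males, 2364 were under 1 FPKM in females, and 376 were listed at 0 in both female libraries. For the 9897 genes with a mean of at least 1 FPKM in each sex the split was the other way round, with 950 (9.6%) higher in females and 559 (5.65%) higher in males.

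**Figure D1:**
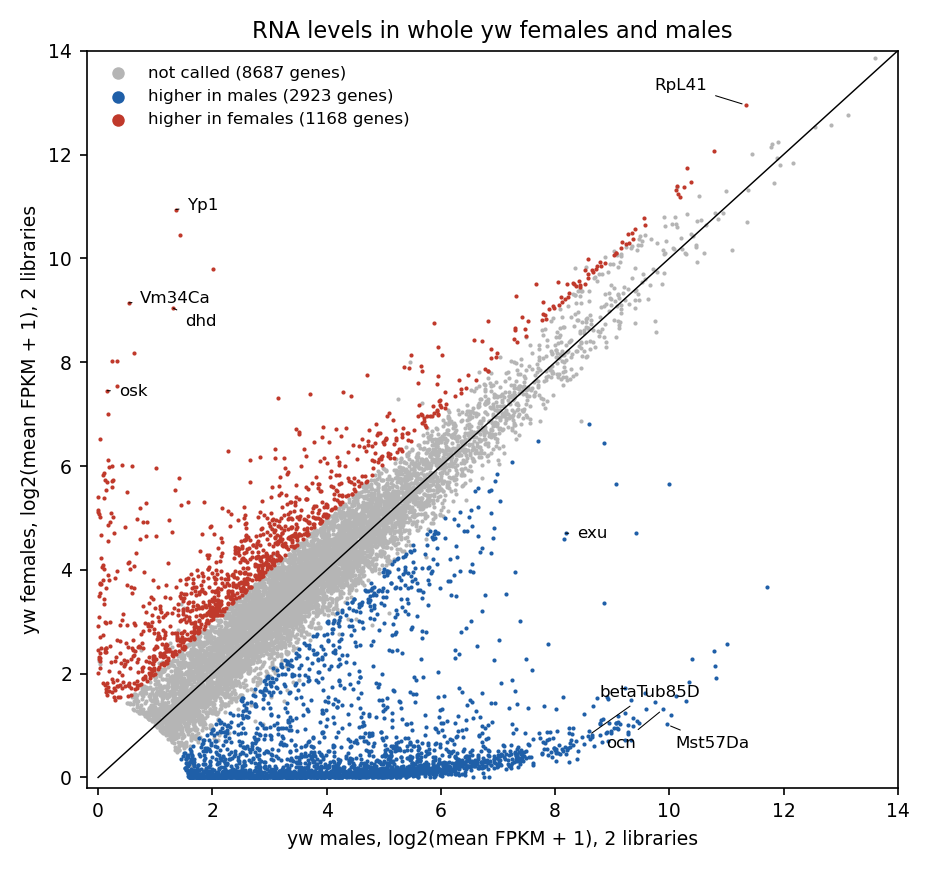
Mean level of each of the 12778 tested genes in yw males (x axis) and yw females (y axis), both as log2(mean FPKM + 1) over 2 libraries, with genes higher in females in red, higher in males in blue and not called in grey. Genes higher in males crowd along the bottom, where females had almost no RNA, whereas most of the 1168 genes higher in females form a band near the diagonal.

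Genes higher in females made up 21.6% and 21.4% of all FPKM in the female libraries and 7.63% and 7.58% in the male libraries. Genes higher in males made up 27% and 22.6% in males and 0.868% and 0.858% in females. Because of such shares, the scale of the libraries matters for small differences. When the libraries were brought to equal medians over the tested genes, all log2 differences shifted toward females, by 0.36 at the median gene (from -0.03 to 0.33). The split then became 2246 genes higher in females and 2718 higher in males, so that females held 45.2% of the calls in place of 28.6%. Without each library in turn, 887 of the 1168 calls in females (75.9%) and 2805 of the 2923 in males (96%) were made every time.

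The yolk protein genes Yp1, Yp2 and Yp3, which the fat body and the follicle cells express to provision the egg, were all higher in females, and Yp1 had the widest difference of any gene with a mean of at least 10 FPKM. Yp1 was at 1986 and 1940 FPKM in the female libraries and at 1.33 and 1.81 FPKM in the male libraries, a log2 difference of 9.58 (SE 0.12, adjusted p = 1.3e-05). Yp2 was at 1420 and 1391 FPKM in females and at 1.49 and 1.9 FPKM in males. Yp3 was at 901 and 885 FPKM in females and at 2.44 and 3.66 FPKM in males. The level in the mutant males reached 24.3 FPKM for Yp1 and 65.9 FPKM for Yp3, still far below the females. All 3 genes lie on the X, Yp1 and Yp2 next to each other on opposite strands (10053811 to 10055498 and 10050951 to 10052636 in the coordinates of the deposited table) and Yp3 at 13759546 to 13761547. The receptor that takes yolk proteins into the oocyte, yl, was at 63.1 FPKM in both female libraries and at 0.188 and 0.179 FPKM in males. The other genes of yolk uptake and nurse cell transport were mixed. Src64B, a kinase of the ring canals, was higher in females (17.9 and 18.4 against 6.59 and 5.24 FPKM), the villin gene qua was higher in males (25 and 22.3 against 6.89 and 7.05 FPKM), and 6 of the 10 tested were not called. The profilin gene chic was called higher in females (148 and 213 against 96.1 and 76.6 FPKM, log2 difference 1.04), but without female library 2 or either male library it was not.

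Eggshell genes, which follicle cells express, were nearly all higher in females. All 9 chorion genes, for the outer eggshell, were called, with a median log2 difference of 5.4 against -0.03 over all tested genes. Cp15 had the largest, with 189 and 183 FPKM in females and 0.258 and 0.253 FPKM in males. Cp16 was at 43.6 and 39.2 FPKM in females and was listed at 0 in both male libraries. Among 17 genes of the vitelline membrane and the eggshell matrix, the inner layers, 14 were higher in females, with a median of 3.98. Vm34Ca was at 586 and 542 FPKM in females and at 0.552 and 0.354 FPKM in males, and Vm26Ab at 260 and 258 FPKM against 0.114 and 0.268 FPKM. The eggshell peroxidase gene Pxt followed them (45.6 and 45.2 against 0.124 and 0.084 FPKM). The 3 that were not called, tsl, cv-d and Cad74A, had similar levels in the sexes, for example 8.65 and 9.03 FPKM in females and 8.6 and 9.8 FPKM in males for tsl.

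**Figure D2:**
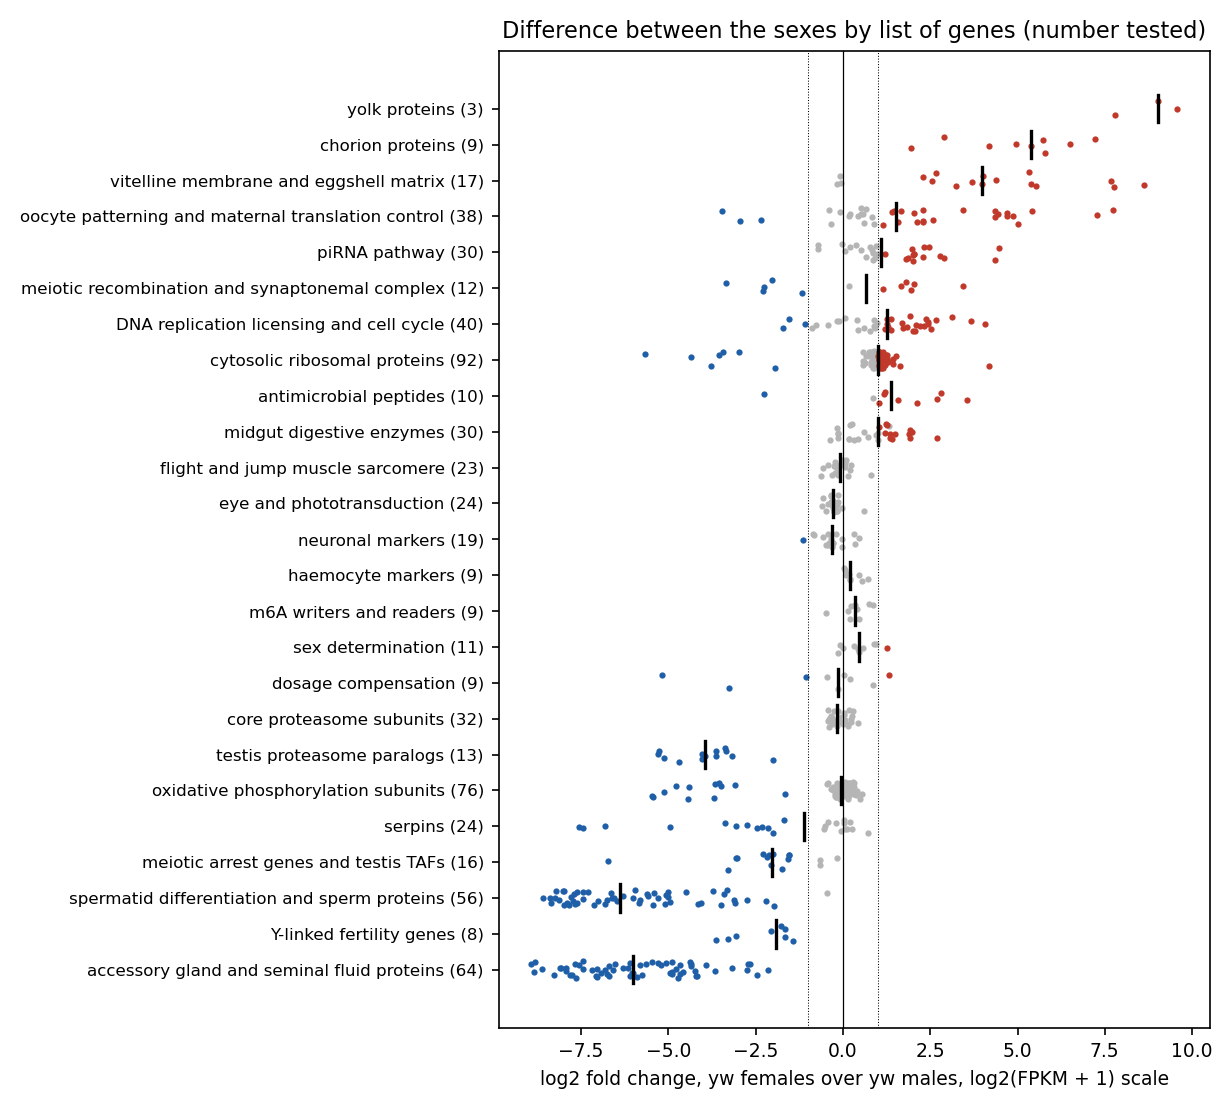
Log2 fold change of yw females over yw males on the log2(FPKM + 1) scale for the tested genes of 25 lists, with genes higher in females in red, higher in males in blue and not called in grey, the list median as a black bar and the 2-fold threshold as dotted lines. Yolk, chorion and vitelline membrane genes lie to the right, spermatid, Y-linked and accessory gland genes to the left, and muscle, eye and neuronal genes around 0.

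Genes of the female germline were higher in females less uniformly. Of 38 genes of oocyte patterning and maternal translation control, 22 were higher in females, 3 were higher in males and 13 were not called. The thioredoxin gene dhd, which acts on the sperm chromatin after fertilization, was at 528 and 524 FPKM in females and at 1.71 and 1.27 FPKM in males. The posterior determinant osk was at 174 FPKM in both female libraries and at 0.0997 and 0.137 FPKM in males. The posterior morphogen nos (27.5 and 27.3 against 0.413 and 0.361 FPKM), the germ cell gene pgc (32.9 and 33.7 against 0.113 and 0.24 FPKM) and the cell cycle gene gnu (63.7 and 63.1 against 0.669 and 0.359 FPKM) stood apart in the same way, whereas the anterior morphogen bcd was low even in females (4.01 and 4.71 against 0.0548 and 0.118 FPKM). Several genes best known from the ovary were present at similar levels in males: BicC was at 18.1 and 18.4 FPKM in females and at 19.4 FPKM in both male libraries, and orb, grk, egl and BicD differed by less than 2-fold. The 3 genes that were higher in males were exu, orb2 and bgcn. The RNA localization gene exu, which has separate male and female transcripts, was at 337 and 243 FPKM in males and at 24.3 and 26 FPKM in females, a log2 difference of -3.46 (SE 0.18, adjusted p = 0.000203). The translation regulator orb2, which spermatids need, was at 57.9 and 42.1 FPKM in males and at 5.32 and 5.65 FPKM in females. The partner of bam in germline stem cell differentiation, bgcn, was at 4.16 and 4.57 FPKM in males and at 0.0631 and 0.0582 FPKM in females, while bam itself went the other way (2.42 and 2.23 FPKM in females against 0.514 and 0.464 FPKM in males).

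The piRNA pathway silences transposons in the germline of both sexes. Of 30 of its genes tested, 15 were called higher in females by limma and 0 higher in males, where 2 (Hen1 and papi) had an adjusted p under 0.05 and a difference under 2-fold. The nuclear Piwi protein gene piwi was at 35.3 and 36 FPKM in females and at 0.732 and 0.587 FPKM in males. Its cytoplasmic relatives aub (13.2 and 13.1 against 2.09 and 1.69 FPKM) and AGO3 (20.2 and 20.7 against 3.42 and 3.17 FPKM) differed less. The helicase gene vas, a marker of germ cells, was at 54.2 and 53.4 FPKM in females and at 1.77 and 1.6 FPKM in males. The Tudor domain gene tud (36.9 and 37.5 against 32.5 and 32.2 FPKM) and papi (21.7 and 20.7 against 35.5 and 35.4 FPKM) were among the 15 that were not called.

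Genes of meiosis, among them those of recombination, the synaptonemal complex, cohesion and segregation, split in both directions. Only females recombine in this species, but not all of these genes act in recombination. Of 12 tested, 6 were higher in females and 5 in males. The synaptonemal complex genes c(3)G (8.3 and 8.96 FPKM in females, 1.51 and 1.5 FPKM in males) and c(2)M (5.18 and 5.29 FPKM, 0.496 and 0.558 FPKM) were higher in females. Yet cona, another component of that complex, was at 22.7 and 17.5 FPKM in males and at 1.14 and 0.926 FPKM in females (log2 difference -3.36, SE 0.15, adjusted p = 0.000121). The crossover gene mei-218 was at 15.7 and 13.1 FPKM in males and at 2.51 and 1.89 FPKM in females, and the cohesion protector mei-S332 at 19.9 and 15.7 FPKM against 3.48 and 3.64 FPKM. The sister chromatid cohesion gene ord, which both sexes need, was at 4.08 and 3.95 FPKM in males and under 0.03 FPKM in females. The 6 mutant male libraries held 16.1 to 24.2 FPKM of cona and 13.5 to 18.1 FPKM of mei-218. The cohesion gene solo, called higher in females, shares its locus with vas, so reads of the pair may not have been separated.

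Of 40 genes of DNA replication and the cell cycle, 23 were higher in females, 3 were higher in males and 14 were not called, with a median log2 difference of 1.28. The mitotic cyclins CycB (166 FPKM in both female libraries, 11.6 and 12.6 FPKM in males) and CycA (99.5 and 98.8 FPKM, 10.4 FPKM in both male libraries) had the highest levels. All 6 subunits of the replicative helicase (Mcm2, Mcm3, dpa, Mcm5, Mcm6 and Mcm7) were higher in females, with log2 differences of 1.71 to 2.51. The Cdc25 phosphatases, which switch on the cyclin-dependent kinases, showed opposite directions. The mitotic gene stg was at 29 and 29.9 FPKM in females and at 0.841 and 0.794 FPKM in males, whereas twe, which acts in meiosis, was at 17.3 and 15.2 FPKM in males and at 5.03 and 4.65 FPKM in females. The other genes called higher in males were Orc3, of the origin recognition complex (12.7 and 10.8 against 2.9 and 2.75 FPKM), and pim, the securin gene (19.2 and 14 against 6.97 and 7.3 FPKM). The call of pim was lost without male library 1 (log2 difference -0.88 in place of -1.10).

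Genes of the later steps of sperm formation were nearly all higher in males. Of 56 genes of spermatid differentiation and sperm proteins, 55 were higher in males, with a median log2 difference of -6.39, and together they held 1.91% and 1.93% of all FPKM in the male libraries against 0.0143% and 0.0149% in the female libraries. In 48 of them the female mean was under 1 FPKM. The gene ocn, whose protein is abundant in testes, was at 950 and 941 FPKM in males and at 1.79 and 1.17 FPKM in females. The sperm leucyl aminopeptidase gene S-Lap1 was at 546 and 778 FPKM against 1.03 and 0.965 FPKM. The chromatin protein genes Mst77F (458 and 460 FPKM in males, 1.26 and 1.09 FPKM in females) and ProtB (168 and 172 FPKM, 0.324 and 0.32 FPKM), which replace histones in the sperm head, were far higher in males as well. Pif1A, at 27.9 and 30.7 FPKM in females and 39.7 and 41 FPKM in males, was the member not called. The levels in yw males lay within or near those of the mutant males, which held 10663 to 11985 FPKM summed over the list against 10879 and 11252 FPKM in yw.

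The meiotic arrest genes switch on transcription in spermatocytes. Of 16 tested in a list with testis TAFs and related genes, 13 were higher in males, and the median level of the 16 in males was 7.2 FPKM. The highest was sowi, at 145 and 114 FPKM in males and 0.23 and 0.21 FPKM in females. The arrest gene aly was at 2.44 and 2.42 FPKM in males and at 0 and 0.0337 FPKM in females, and the testis TAF genes sa (7.95 and 9.99 FPKM), can (2.86 and 3.64 FPKM) and nht (2.96 and 4.1 FPKM) were all under 0.1 FPKM in females. The translation regulator bol, of the DAZ family, was at 48.3 and 53.4 FPKM in males and at 10.2 and 11.6 FPKM in females. Of 12 Y-linked genes listed, 8 passed the filter and all 8 were called higher in males, at low levels of 2.06 to 12.4 FPKM. In 7 of the 8 the female mean was under 1 FPKM, so their direction follows from the filter. The male fertility gene kl-5, for a sperm axonemal dynein, was at 2.26 and 2.06 FPKM in males and was listed at 0 in both female libraries, and ARY was at 12.4 and 10.5 FPKM against 0 in both. FDY was the exception with reads in females, at 3.32 and 0.972 FPKM against 8.17 and 5.68 FPKM in males. FDY is a copy of an autosomal gene and may share reads with it. Its call (adjusted p = 0.048) was lost with equal medians or equal sums, with a pseudocount of 0.1, with no filter, and without female library 2 or either male library.

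Paralogs of several housekeeping complexes were higher in males, while the ordinary subunits were not called. Of 32 subunits of the proteasome, the protease that degrades ubiquitin-tagged proteins, limma called none in either direction, and their log2 differences ran from -0.438 to 0.434. An unadjusted p under 0.05 was given to 6, 3 in each direction, and an adjusted p under 0.05 to 4 of these. All 13 of their testis paralogs were higher in males, and 12 of these were under 1 FPKM in females. Rpt6 was at 117 and 118 FPKM in females and at 104 and 129 FPKM in males, and its paralog Rpt6R was at 11.2 and 11.1 FPKM in females and at 48 and 47.4 FPKM in males. Prosalpha6 was at 102 and 95.7 FPKM in females and 84.3 and 85.6 FPKM in males, and Prosalpha6T was at 41.3 and 36.7 FPKM in males but at 0 and 0.0721 FPKM in females.

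The respiratory chain showed the same arrangement. Among 76 nuclear subunits of oxidative phosphorylation, which makes ATP in mitochondria, 12 were higher in males and 64 were not called. The shares were 15.8% in males and 0% in females, against 22.9% and 9.14% over all tested genes. In 11 of the 12 the female mean was under 1 FPKM, so their direction follows from the filter. The 12 were the members named as like genes, with L after the name of the ordinary subunit, and their means were 4.66 to 47.1 FPKM in males and at most 1.51 FPKM in females. ND-49L, of complex I, was at 23.8 and 20.3 FPKM in males and at 0.0262 and 0.0919 FPKM in females, beside ND-49 at 256 and 279 FPKM in males and 270 and 272 FPKM in females. UQCR-14L, of complex III, was at 39.9 and 54.2 FPKM in males and at 0.133 and 0.0294 FPKM in females. The remaining 64 had log2 differences of -0.46 to 0.55. The mitochondrial chaperonin genes followed this pattern too: Hsp60C was at 239 and 276 FPKM and Hsp60B at 138 and 170 FPKM in males, both under 0.5 FPKM in females, while the general copy Hsp60A was at 86.5 and 103 FPKM in males and at 177 and 170 FPKM in females. Reads of close paralogs may have been divided between them by the mapping.

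Of 10 tubulins, 2 (20%) were higher in each sex. Over all tested genes the shares were 9.14% in females and 22.9% in males. The testis beta tubulin betaTub85D was at 389 and 375 FPKM in males and at 0.662 and 0.838 FPKM in females. The maternal alpha tubulin alphaTub67C was at 51.7 FPKM in both female libraries and at 0.177 and 0.186 FPKM in males, and the ovarian gamma tubulin gammaTub37C at 9.97 and 9.59 FPKM against 0.0372 and 0.116 FPKM. A further gene called, alphaTub85E, was higher in males (22.1 and 23.7 against 5.28 and 4.52 FPKM), and the 6 other tubulins were not called, among them the general forms alphaTub84B and betaTub56D.

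**Figure D3:**
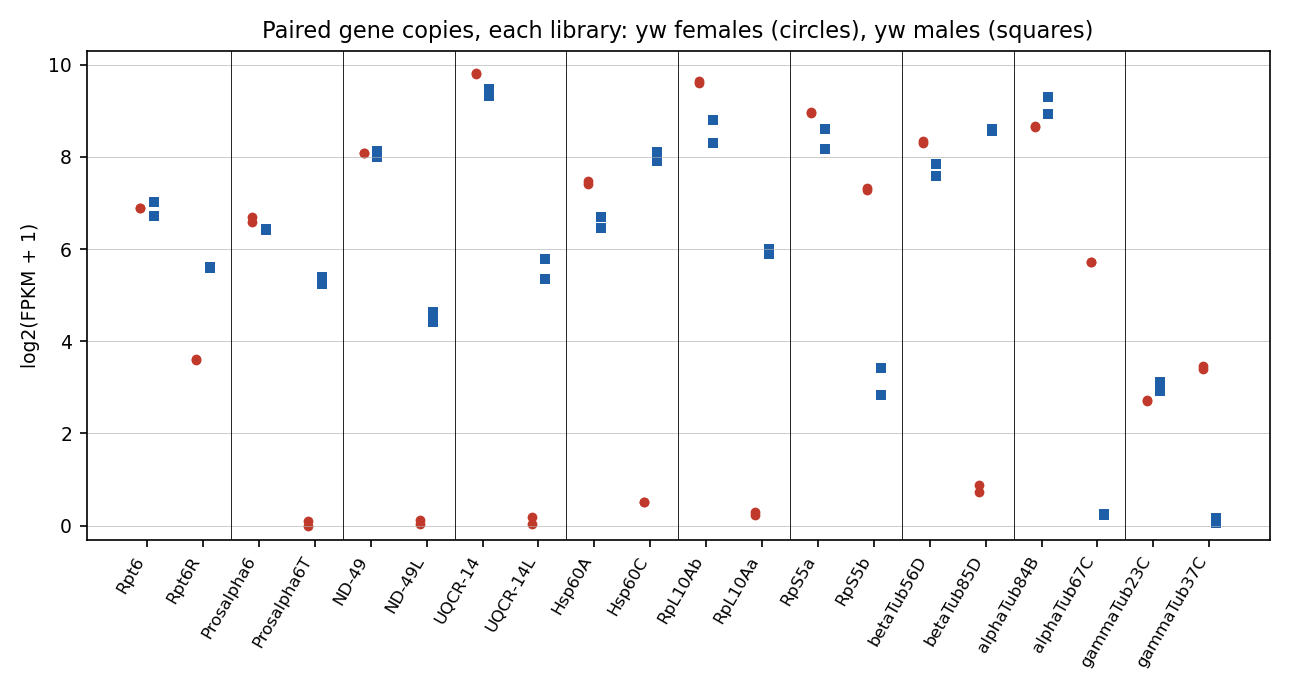
Level in each library, as log2(FPKM + 1), of 10 pairs of an ordinary gene (left) and a copy called in 1 sex (right), with the 2 yw female libraries as circles and the 2 yw male libraries as squares. The ordinary copies of proteasome, respiratory chain and tubulin genes differed by less than 2-fold between the sexes, whereas Rpt6R, Prosalpha6T, ND-49L, UQCR-14L, Hsp60C, RpL10Aa and betaTub85D were higher in males and RpS5b, alphaTub67C and gammaTub37C in females.

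Ribosomal proteins of the cytosol also had copies of either sex. Of 92 tested, 44 were called higher in females and 7 in males. The 7 were RpS10a, RpL37b, RpL22-like, RpL10Aa, RpS19b, RpS28a and RpS28-like, all at low levels. RpL10Aa, the highest of them, was at 63 and 58.3 FPKM in males and at 0.171 and 0.227 FPKM in females. RpS5b had by far the widest difference in the other direction, at 160 and 155 FPKM in females and 6.16 and 9.68 FPKM in males (log2 difference 4.18), and its copy RpS5a was at 492 and 504 FPKM against 286 and 390 FPKM. Over the list the median log2 difference was 0.994, close to the 2-fold threshold, and the number called higher in females depended on the library left out and on the scale. With equal medians it was 80, and the 7 calls in males were kept. For RpL23 the log2 difference was 1.28, and 1.29 and 1.28 without female library 1 or 2. Its size was thus kept, but in both cases RpL23 was no longer called. RpS19a had 1.08, but 0.78 without male library 1, and RpL36 had 0.85 without male library 2. Summed over the list, the ribosomal protein genes held 91452 and 89919 FPKM in females and 39608 and 47769 FPKM in males, and the groups did not overlap. The mutant males held 35132 to 58198 FPKM. The 73 ribosomal proteins of mitochondria had a median of 0.554, and 1 was called, mRpL33 (48.7 and 53.7 against 25.2 and 14.8 FPKM), which was lost without male library 2. With equal medians 30 of them were higher in females.

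Seminal fluid genes were higher in males without exception. All 64 genes of the accessory gland list were called, with a median log2 difference of -6.01, and 49 of them were under 1 FPKM in females. Mst57Da had the largest difference of any gene higher in males, at 909 and 1075 FPKM in males and 0.73 and 1.33 FPKM in females (log2 difference -8.94). The sex peptide gene SP, which changes female behaviour after mating, was at 354 and 166 FPKM in males and at 1.03 and 0.688 FPKM in females, and Acp36DE, which acts in sperm storage, at 381 and 276 FPKM against 0.536 and 0.71 FPKM. The male libraries differed in this list, which summed to 23458 FPKM in the first and 13918 FPKM in the second, against 66.2 and 64.5 FPKM in females. Dup99B (703 and 224 FPKM) and Acp98AB (1044 and 155 FPKM) were among the genes behind that gap. All 64 remained called without either male library. In the ejaculatory bulb and duct, EbpII (1306 and 925 FPKM in males, 1.58 and 2.39 FPKM in females) and Ebp (547 and 839 FPKM, 1 and 1.26 FPKM) were higher in males, but EbpIII was at 411 and 427 FPKM in females and 515 and 602 FPKM in males, and was not called.

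Several serpins and odorant binding proteins were far higher in males. Of 24 serpins, which inhibit serine proteases, 12 were called higher in males by limma and 0 in females, where 1 had an adjusted p under 0.05 and a difference under 2-fold. Spn28F was at 260 and 234 FPKM and Spn38F at 251 and 286 FPKM in males, and both were under 0.7 FPKM in females. Among 32 odorant binding proteins, which carry small ligands in the antenna and elsewhere, 8 (25%) were higher in males and 2 (6.25%) in females, close to the shares over all genes. Obp56g was at 653 and 709 FPKM in males and 25 FPKM in both female libraries, and Obp51a was at 224 and 209 FPKM in males and 0.373 and 0.358 FPKM in females. Higher in females were Obp57a (43.5 and 41.2 against 8.48 and 9.04 FPKM) and Obp19c (4.72 and 4.5 against 0.872 and 0.559 FPKM). The 6 mutant male libraries had 23.8 to 41.4 FPKM of Obp57a, above both yw male libraries. The list of cytochrome P450 genes, enzymes of hormone and toxin metabolism, held 3 calls (4%) in females and 6 (8%) in males among 75. These shares lay below those over all genes (9.14% and 22.9%). The widest were Cyp6a19 in females (29.7 and 31 against 0.243 and 0.97 FPKM) and Cyp312a1 in males (43.1 and 46.6 against 0.608 and 0.434 FPKM). Among the calls in females, Cyp1 (565 and 579 against 212 and 229 FPKM) is a cyclophilin gene with a similar symbol, not a P450. Of 49 structural cuticle proteins, 4 (8.16%) were higher in females and 5 (10.2%) in males, and the number in females was 7 without male library 1, 2 without male library 2 and 8 with equal medians. The cuticle gene Twdlalpha was at 8.62 and 9.48 FPKM in males and at 0.134 and 0.0793 FPKM in females.

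Of 20 sex determination genes listed, 11 passed the filter. By the 2-fold threshold only Sxl was called, and with equal medians 3 were, all higher in females. Without that threshold 7 of the 11 had an adjusted p under 0.05, and all 7 were higher in females. Sxl was at 24.1 and 25.1 FPKM in females and 10.4 and 8.84 FPKM in males. Its target tra was at 15.1 and 15.4 FPKM in females and at 7.52 and 7.23 FPKM in males, a log2 difference of 0.96 (SE 0.08, adjusted p = 0.000762) that passed the 2-fold threshold with equal sums, with equal medians or with a pseudocount of 0.1. The terminal regulators overlapped between the sexes: dsx was at 6.71 and 6.99 FPKM in females and at 7.24 and 6.38 FPKM in males, and fru at 1.91 and 2.3 FPKM against 2.56 and 1.99 FPKM. These genes are known to act through sex-specific isoforms, and gene-level FPKM does not separate isoforms. The splicing gene snf, which acts on Sxl, was at 43.5 and 44.5 FPKM in females and 24.6 and 21.8 FPKM in males (log2 difference 0.90), and also passed the threshold with equal medians.

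Of 9 dosage compensation genes, 1 (11.1%, against 9.14% over all genes) was higher in females and 3 (33.3%, against 22.9%) in males. The noncoding RNAs of the MSL complex had the widest differences: roX1 was at 52 and 46.2 FPKM in males and at 0.355 and 0.427 FPKM in females, and roX2 at 10.1 and 9.96 FPKM against 0.152 and 0.16 FPKM. The limiting protein subunit msl-2, whose translation Sxl blocks in females, was at 8.4 and 7.09 FPKM in males and at 3.32 and 3.1 FPKM in females. Its log2 difference of -1.05 lay near the threshold, and fell to -0.99 with equal sums, -0.94 without male library 1 and -0.71 with equal medians, where it was not called. The scaffold subunit msl-1 went the other way, at 14.1 and 14.2 FPKM in females and 5.72 and 4.57 FPKM in males (log2 difference 1.31). For msl-3, mle and mof the log2 differences were -0.15, 0.02 and 0.20, and none was called. Unr, which represses msl-2 together with Sxl, was at 28.4 and 29.6 FPKM in females and at 16 and 15.2 FPKM in males (log2 difference 0.85).

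By limma, none of the 9 genes of the m6A machinery was called in either direction, although 4 had an adjusted p under 0.05 with a difference under 2-fold. Of these, 3 were higher in females and 1 in males. Closest to the threshold were nito, a subunit of the writer complex (12.1 and 12 FPKM in females, 6.46 and 5.93 FPKM in males, log2 difference 0.86), and the reader Ythdf (27.4 and 26.3 FPKM, 17.3 and 13.9 FPKM, 0.75), and with equal medians both were called higher in females. The catalytic subunit Mettl3 was lower in females, at 3.43 and 3.44 FPKM against 5.22 and 5.17 FPKM in males (log2 difference -0.48, adjusted p = 0.0074), a difference under 2-fold in which the groups did not overlap. Its partner Mettl14 was at 6.09 and 5.63 FPKM in females and 4.19 and 4.25 FPKM in males. For Hakai the female libraries held 3.57 and 4.4 FPKM and the male libraries 2.47 and 3.36 FPKM, with an adjusted p of 0.13. The nuclear reader Ythdc1 was at 20.4 and 16.8 FPKM in females and 17.4 and 13.8 FPKM in males, and these ranges overlapped.

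**Figure D4:**
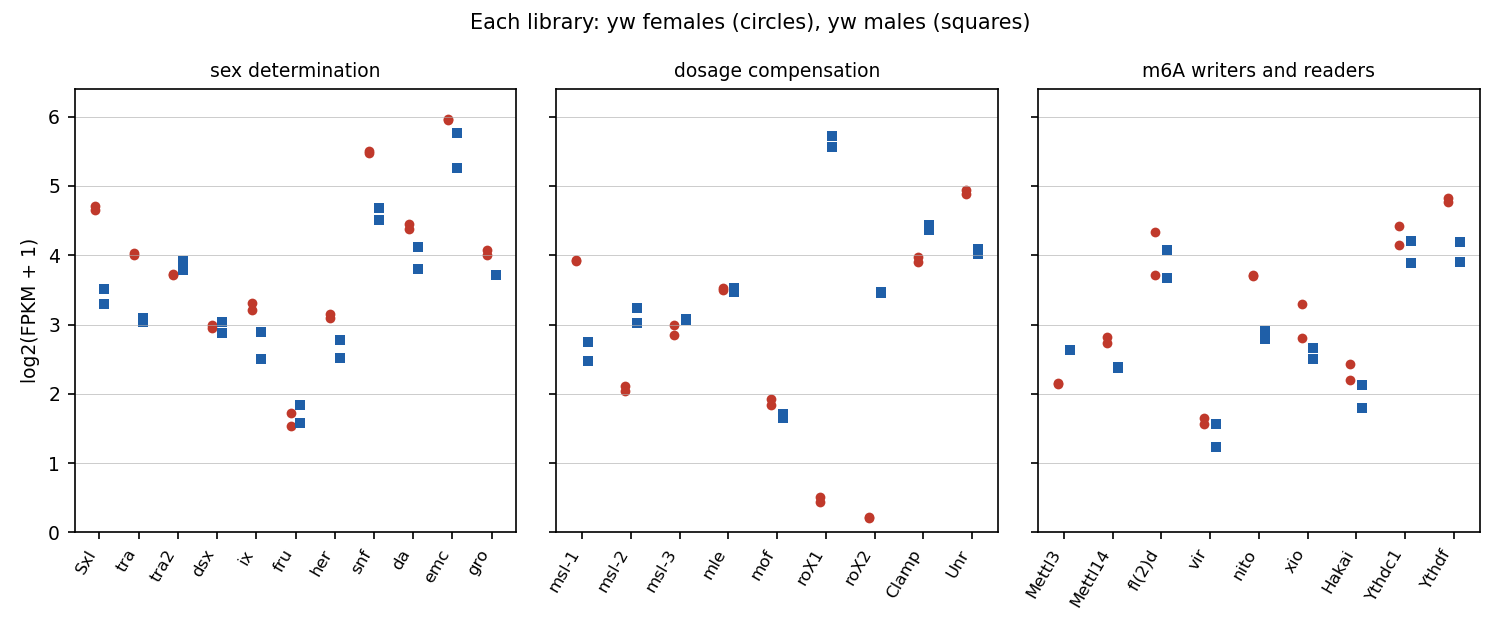
Level in each library, as log2(FPKM + 1), of the tested genes of sex determination, dosage compensation and the m6A machinery, with the 2 yw female libraries as circles and the 2 yw male libraries as squares. Only Sxl, msl-1, msl-2, roX1 and roX2 were called, and dsx, fru, mle and Ythdc1 overlapped between the sexes.

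Of 20 sex-biased genes of the fat body, pheromones and the head, 4 (20%, against 9.14% over all genes) were higher in females and 4 (20%, against 22.9%) in males. The desaturase Fad2, which makes female pheromone dienes, was at 33 and 32.2 FPKM in females and at 0 and 0.0177 FPKM in males, and the elongase eloF at 56.4 and 57.5 FPKM against 8.78 and 8.93 FPKM. The fat body gene fit, a satiety signal in females, was at 23.9 and 24 FPKM in females and 1.26 and 0.308 FPKM in males. Cyp4d21, also named sxe1, was higher in males at 5.16 and 2.24 FPKM against 0.591 and 0.68 FPKM, and the mutant males had 9.55 to 27 FPKM of it. Without male library 1 its log2 difference was -0.99 and no longer passed the threshold. Of 9 genes of the spermatheca and the female tract, 3 (33.3%) were higher in females and 1 in males. The spermathecal protease Send1 was at 128 FPKM in both female libraries and at 0.0608 and 0.181 FPKM in males, and SPR, the receptor of sex peptide, at 7.98 and 6.72 FPKM against 1.85 FPKM in both male libraries. The peptidase gene Nep4, higher in males (15.5 and 14.8 against 5.36 and 4.96 FPKM), also acts in testes.

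Some digestive enzymes and most antimicrobial peptides were called higher in yw females than in yw males, and levels ranged widely among the mutant males. Of 30 midgut enzymes, 13 were higher in females and 17 were not called. The 13 were 11 serine proteases and the lysozyme genes LysB and LysD. Jon65Aiii was at 445 and 438 FPKM in females and at 180 and 187 FPKM in males, but the 6 mutant male libraries ranged from 90.6 to 696 FPKM. Lysozyme gene LysB was at 91.8 and 83.1 FPKM in females and 13.8 and 11.6 FPKM in males, with 1.04 to 59 FPKM in mutant males. Carbohydrate enzymes of the same organ were not called: the amylase Amy-p was at 163 and 168 FPKM in females and 127 and 140 FPKM in males. Of 10 antimicrobial peptide genes, 8 were higher in females. Mtk was at 106 and 108 FPKM in females and at 16 and 12.8 FPKM in males, and DptA at 66.3 and 71.2 FPKM against 3.33 and 7.27 FPKM. CecA1 was higher in males (23.8 and 11.3 against 2.48 and 2.83 FPKM). The mutant males held 16.3 to 135 FPKM of Mtk and 104 to 373 FPKM of Drs, ranges that took in the yw females (277 and 261 FPKM of Drs). Without 1 library, 6 to 9 of the 10 were called higher in females.

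Most heat shock genes did not pass the test, and the male libraries differed widely in them. The 22 genes summed to 17302 and 17165 FPKM in females, and to 6152 and 14424 FPKM in males. Hsp26 was at 2631 and 2699 FPKM in females and at 568 and 1668 FPKM in males, with an adjusted p of 0.0856. Hsp70Aa was at 1621 and 1596 FPKM in females and 657 and 1573 FPKM in males. Called higher in females were 2, Hsc70-4 (1183 and 1178 against 477 and 668 FPKM) and Hsp70Ba (639 and 655 against 240 and 365 FPKM). Without male library 2 the number was 16, and without any other library it was 0. The 3 calls in males were Hsp60B, Hsp60C and Hsp60D, which were called in every case. The shares called were 9.09% in females and 13.6% in males, against 9.14% and 22.9% over all tested genes.

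Genes of muscle, the eye, neurons, haemocytes and the Malpighian tubules, which both sexes share, were seldom called. That did not hold for every shared tissue, since 13 of 30 midgut enzymes were called. None of 23 muscle sarcomere genes, 24 eye genes or 9 haemocyte genes was called, although 1 muscle gene (TpnC73F) and 1 haemocyte gene (vkg) passed in females with equal medians. Without the 2-fold threshold, limma gave an unadjusted p under 0.05 to 3 muscle, 10 eye and 3 haemocyte genes, of which 1, 1 and 3 were higher in females. The adjusted p was under 0.05 for 2, 8 and 3 of them. The myosin light chain Mlc2 was at 5953 and 5959 FPKM in females and 5909 and 6158 FPKM in males, and the rhodopsin gene ninaE at 726 and 702 FPKM against 890 and 727 FPKM. Of 19 neuronal genes, fne alone was called, in males (7.65 and 3.82 against 2.36 and 1.56 FPKM), and that call was lost with equal medians, with equal sums, with no filter, and without female library 2 or male library 1. The medians of these lists were -0.0888 for muscle, -0.278 for the eye and -0.32 for neurons, and all 3 turned positive with equal medians (0.324, 0.122 and 0.0514). Of 11 genes listed for the Malpighian tubules, the excretory organ, 1 was called, the proton pump subunit gene Vha14-2 (18.6 and 15.3 FPKM in males, 0.199 and 0.039 FPKM in females). Females carry that organ too and had ZnT35C of the same list at 35.1 and 36.1 FPKM, so Vha14-2 did not mark the organ here. Uro, the urate oxidase of the tubules, was at 14.3 and 13.6 FPKM in females and 8.78 and 7.75 FPKM in males, and passed in females with equal medians. The same turn was seen in 12 of the 37 lists, among them core proteasome and respiratory chain. Among the 15 fat body and haemolymph genes, apolpp, of the lipid carrier lipophorin (126 and 129 against 60.9 and 38.4 FPKM), and Vago (13.9 and 14.1 against 4.13 and 4.05 FPKM) were higher in females. The genes with at least 100 FPKM in each sex and the smallest differences included Cyp4g1, of hydrocarbon synthesis, at 1607 and 1601 FPKM in females and 1660 and 1553 FPKM in males, and the translation factor eIF1A at 280 and 278 FPKM against 274 and 284 FPKM.

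The chromosomes differed in the share of their genes called. On the X, 13.3% of 1999 tested genes were higher in females and 18.4% in males. On the large autosome arms the shares were 7.91% to 8.84% in females and 21.9% to 27.9% in males, with the highest male share on 2L. The median log2 difference was 0.17 on the X and -0.12 to -0.03 on those arms. Restricted to genes with at least 1 FPKM in each sex, it was 0.28 on the X and 0.09 to 0.12 on the arms. On chromosome 4, with 95 tested genes, 4 were higher in females and 8 in males. On the Y, 19 of 20 tested genes were higher in males, and the other, CG45766, was at 0 and 9.64 FPKM in the male libraries. Of these 20 genes, 95% had a female mean under 1 FPKM and 12 were listed at 0 in both female libraries. Such genes passed the filter through males, so their direction follows from it.

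**Figure D5:**
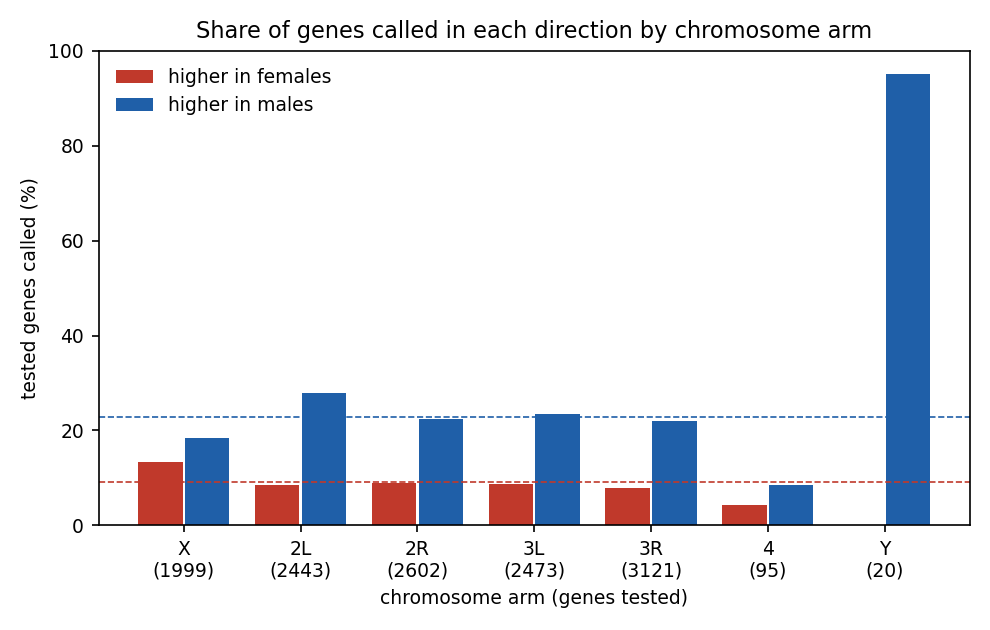
Share of the tested genes of each chromosome arm that were higher in yw females (red) or yw males (blue), with the number tested under each arm and dashed lines at the shares over all 12778 genes, 9.14% and 22.9%. The X had the highest share in females (13.3%), and 2L had the highest share in males (27.9%) after the Y (95%).

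Noncoding genes, where called, were mostly higher in males. Of 528 tested genes named as long noncoding RNAs, 375 (71%) were higher in males and 24 (4.55%) in females, and of 230 antisense RNAs 81 (35.2%) and 7 (3.04%). Genes known only by a CG number, which have no given name, were higher in males in 31.3% of 5583 cases and in females in 7.22%. Over all tested genes the shares were 22.9% and 9.14%. Only 528 of 1902 listed long noncoding RNAs passed the filter. These kinds were not counted among genes with at least 1 FPKM in each sex, so what part of their shares follows from the filter was not tested. Genes higher in males also spanned less of the genome, with a median of 1196 bases from start to end against 2027 bases for genes higher in females and 2790 bases for genes not called.

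Called genes also stood side by side along the chromosomes. Tested genes that followed each other with the same call formed 77 runs of 5 or more in males, with 589 genes, and 6 in females, with 34 genes. More runs go with more calls (22.9% against 9.14% of genes), and whether the sexes differ beyond that was not tested. The longest in males had 20 genes and lay on 3R from 25773334 to 25844378, with Mst57Da, Mst57Db, Mst57Dc and Sfp96F of the seminal fluid. Another on 3R, from 7285962 to 7423057, had 15 genes and took in Mst84Da, Mst84Db, Mst84Dc and Mst84Dd, which encode sperm tail proteins. The longest in females had 7 genes, on the X from 8467443 to 8489535, and ran from CG12116 through the chorion genes Cp7Fa, Cp7Fb, Cp7Fc, Cp36 and Cp38 to otu. A further 2 held the vitelline membrane genes Vm26Aa, Vm26Ab and Vm26Ac on 2L (5956489 to 5967752) and the chorion genes Cp15, Cp16, Cp18 and Cp19 on 3L (8725520 to 8732599).

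The m6A peaks of the authors were set beside the calls for genes with at least 10 FPKM in each sex, since a peak needs RNA to be found. In the list of yw females, 74.4% of 317 genes higher in females, 79.4% of 136 genes higher in males and 79.1% of 4016 genes not called had a peak. In the list of yw males the shares were 71.9%, 82.4% and 77.1%. Peaks assigned to the 5′ UTR were found in 28.4%, 41.9% and 38.8% of these genes in the female list, and in 19.6%, 30.1% and 30% in the male list. The differences were not tested, since each list was called on the replicates together. With a limit of 1 FPKM in each sex, the share with any peak in the female list was 73.6% for genes higher in females, 70.7% for genes higher in males and 76.1% for genes not called, another order. The genes not called were at a median of 27.3 FPKM in females, those higher in females at 85.1 FPKM and those higher in males at 15.4 FPKM.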

How the data were processed

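Poly(A) RNA was sequenced as strand-specific paired-end libraries. After trimming (fastp) and mapping (HISAT2), the authors obtained the deposited FPKM values from StringTie. They called m6A peaks with exomePeak on the replicates of a group together and assigned them with ChIPseeker. The deposited fold enrichment of a peak, a ratio, was not used beyond the presence of the peak, and the mutant peak lists were not used. No file gave counts of reads, so depth and its effect on low FPKM values are unknown.

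FPKM values were analysed with limma 3.58.1 (R 4.3.3) on log2(FPKM + 1), using lmFit, then eBayes with a trend of variance on level, in a fit of 4 libraries with 2.16 prior degrees of freedom. Fold changes are on that scale, which understates those of low genes. A call needed a Benjamini-Hochberg adjusted p under 0.05 over all 12778 tested genes and at least 2-fold. An exact permutation test of 2 against 2 libraries cannot go below p = 0.333. In simulated data of this comparison, 68 of 100 genes planted at 1.5 and 89 of 100 at 3 on the log2 scale were called, as were 3 of 12578 unchanged genes. The simulation gave each gene a spread drawn from all genes, the same in both sexes, and planted no changes in low genes. In the data the median SD was 0.136 in males and 0.038 in females, so these rates may not hold for the real libraries. Members and the 37 gene lists were chosen with earlier results of these data known. Named genes are the members of 6 short lists, in each other list up to 4 with the highest level and 2 with the largest difference, and the 10 genes at each extreme. Further members, the pairs of copies among them, were named after their values were seen. List counts without each library and the levels in mutant males were added after seeing the data. Tables and plots were made in Python 3.11.15 with pandas 2.3.3, numpy 2.4.6 and matplotlib 3.10.9.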

Additional observations from a re-analysis of the deposited data

How the results depend on the processing

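The counts of 1168 genes higher in females and 2923 higher in males stayed within 1.5-fold under most alternatives. With equal medians of the libraries 2246 genes were higher in females, and with a mean of at least 5 FPKM 1930 were higher in males, since fewer genes were then tested. Without each library in turn the counts were 1119 to 1260 in females and 2911 to 2984 in males. A pseudocount of 0.1 gave 1422 and 3046, no filter 1144 and 3184, equal sums 1314 and 2873, and a 2-fold ratio of means with no test 1510 and 3166. The labels do not say that libraries with the same replicate number were paired. The deviations of female 1 and male 1 from their group means had a correlation across genes of -0.00, which rests on 1 library of each sex and cannot settle the point. A fit with the replicate number as a block called 1199 genes higher in females and 2946 higher in males. No named gene that was called changed direction under the alternatives, while genes and list medians near 0 could, as 12 of the 37 list medians did with equal medians. For the 226 named genes tested, 3080 of 3139 values under the alternatives kept the call, 27 gained it and 32 lost it. With 2 libraries in each sex the spread of a gene rests about equally on its own libraries and on all genes (2 residual and 2.16 prior degrees of freedom). The male libraries differed from each other more than the female libraries in 10099 of the tested genes. The cause was not tested.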

Other observations

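The most abundant male genes were listed at low levels in females. Of the 56 tested spermatid genes, 30 had a mean of at least 100 FPKM in males, and their female mean was 0.0839% to 7.88% of the male mean, with a median of 0.174%. For the 30 accessory gland genes of at least 100 FPKM the median was 0.235%. In the other direction, the 3 vitelline membrane genes of at least 100 FPKM in females were in males at 0.0739% to 0.0993% of the female mean, and the 3 yolk protein genes at 0.0800% to 0.342%. Neither depth nor the source of these reads can be had from FPKM values.

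In the mitochondrial genome, 2 of 25 tested genes were called. The gene mt:ATPase8 was at 186 and 885 FPKM in males and 42.4 and 56.3 FPKM in females, with 29 to 413 FPKM in the mutant males, and mt:tRNA:Ile-GAT was at 11.8 and 15.3 FPKM in females and 3.58 and 2.54 FPKM in males. Both are short genes, and the most abundant mitochondrial RNA, mt:CoIII, was at 20452 and 21332 FPKM in females and 19553 and 22812 FPKM in males.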
